A study of Mus musculus with 53 samples.

Results

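The genes described here are Atf4, Atf5, Ddit3, Trib3, Chac1, Asns, Sesn2, Hspa5, Xbp1 and Herpud1, a panel of 10 genes of the integrated stress response and the unfolded protein response. They were picked by gene symbol from 23847 loci, with no measured value in the rule, and each symbol matched 1 locus. Expression was measured by RNA-seq in FPKM, fragments scaled to transcript length and to the mapped fragments of the sample, a unit that allows levels to be compared between genes. All 10 genes reached 1 FPKM in at least 1 sample and were thus among the 11146 loci tested, but Chac1 did so only in the Stat6-/- samples of replicate 1 at 1 h, the control at 1.64 FPKM and the IL-4 sample at 1.40 FPKM.

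The samples were bone marrow-derived macrophages (BMDMs) grown for 6 days with L929 cell supernatant, a source of M-CSF, from WT mice and from mice lacking Stat6 in the whole body, both on the C57BL/6 background and 8 to 12 weeks old. The cells received IL-4 at 20 ng/ml for 1, 3, 6 or 24 h or were left as controls of the same time, and controls at 0 h were also collected, which gave 18 groups and 53 samples. WT groups held 4 samples each, except for the 3 samples with 24 h of IL-4 (replicates 2, 3 and 4, with replicate 1 not analysed here), and Stat6-/- groups held 2 each. The comparison asked how IL-4, the cytokine of alternative macrophage polarization, changed these genes and whether the transcription factor STAT6 was needed. The authors describe the WT fold changes of this time course as averages over 4 individual animals and give n = 2 for Stat6-/-. Whether same-numbered samples came from 1 animal was not stated in the labels. The main fit took all samples as separate, so its p-values measure the spread between these samples. Several calls changed in a fit with the replicate number as a block, given further below.

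FPKM sums ranged from 385888.9 to 464914.9 per sample, and 10017 to 10380 loci per sample reached 1 FPKM. Absolute depth is unknown, while relative depth, recovered from low loci, ranged from 0.707 to 1.554 of the median sample and had medians of 1.0 in WT and 1.007 in Stat6-/-. Stat6 lay between 58.7 and 90.6 FPKM in the 35 WT samples and between 14.3 and 24.0 FPKM in the 18 Stat6-/- samples, without overlap. The 6 macrophage markers present by symbol summed to between 2810 and 4640 FPKM in every sample, and all 4 T cell markers and all 4 fibroblast markers stayed below 1 FPKM. The sum of 4 neutrophil markers (S100a8, S100a9, Mpo and Elane) was higher in Stat6-/- controls, at 496 to 934 FPKM with a median of 635, than in WT controls, at 259 to 535 FPKM with a median of 379. In bulk samples of this kind, fewer cells of a type and less RNA per cell cannot be told apart.

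Both pathways answer to trouble in protein synthesis. In the integrated stress response, kinases that sense amino acid shortage, misfolded protein or other stress phosphorylate the initiation factor eIF2, which slows translation in general and favours translation of the ATF4 mRNA. ATF4 then drives genes of amino acid supply and of cell death. In the unfolded protein response of the endoplasmic reticulum (ER), the sensor PERK feeds into eIF2, the sensor IRE1 splices the Xbp1 mRNA, and the sensor ATF6 is cut to release a transcription factor, and together they raise chaperones and degradation factors. Part of this control acts on translation and splicing, and a gene-level FPKM shows neither.

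Promoters of several of these genes hold short elements through which the pathways act, and the windows with such letters are shown here for Hspa5, Herpud1, Asns and Chac1 because they hold an ER stress element, a CARE core or both. The 250 bases before each RefSeq gene start on GRCm38.p6, the patch release of mm10, were searched on both strands, and all 10 genes were matched, Atf5 with 2 starts. The searched elements were the ER stress response elements ERSE, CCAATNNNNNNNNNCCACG, and ERSE-II, ATTGGNCCACG, the core of the unfolded protein response element, TGACGTGG, the core of the element bound by C/EBP and ATF4 dimers (CARE), TGATGNAA, and STAT sites with a gap of 3, TTCNNNGAA, or of 4, TTCNNNNGAA. ERSE occurred in 0.11% of 32851 promoters and here in Hspa5, 65 to 47 bases before the start. ERSE-II occurred in 0.03% of promoters and here in Herpud1, 52 to 42 bases before the start. The CARE core occurred in 3.45% of promoters and here in Asns (23 to 16 bases before the start), Herpud1 (112 to 105) and Chac1 (193 to 186). The unfolded protein response core (0.56% of promoters) and the STAT site with a gap of 3 (7.02%) had no match in these windows, and the STAT site with a gap of 4 (5.85%) matched in Chac1, 216 to 207 bases before the start. None of these matches overlapped another. The windows of Hspa5 (chr2:34771840-34772089, plus strand), Herpud1 (chr8:94386179-94386428, plus strand), Asns (chr6:7693210-7693459, minus strand) and Chac1 (chr2:119350992-119351241, plus strand) follow, 5′ to 3′ on the gene's strand, with matches in capitals. A match describes letters and is not evidence of binding.
Hspa5: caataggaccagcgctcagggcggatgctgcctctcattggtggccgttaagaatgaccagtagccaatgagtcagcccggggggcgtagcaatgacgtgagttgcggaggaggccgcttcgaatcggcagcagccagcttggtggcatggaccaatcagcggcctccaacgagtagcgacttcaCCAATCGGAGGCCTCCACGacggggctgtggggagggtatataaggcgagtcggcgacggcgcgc
Herpud1: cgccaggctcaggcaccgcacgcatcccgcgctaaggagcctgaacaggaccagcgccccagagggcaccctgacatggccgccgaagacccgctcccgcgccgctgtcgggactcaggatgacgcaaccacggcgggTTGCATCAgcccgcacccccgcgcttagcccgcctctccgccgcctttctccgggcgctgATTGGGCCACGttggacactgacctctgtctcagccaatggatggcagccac
Asns: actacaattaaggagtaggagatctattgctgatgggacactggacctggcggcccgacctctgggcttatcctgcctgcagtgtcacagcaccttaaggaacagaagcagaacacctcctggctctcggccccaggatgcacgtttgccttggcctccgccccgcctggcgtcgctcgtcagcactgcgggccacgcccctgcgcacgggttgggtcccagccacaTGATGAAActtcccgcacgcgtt
Chac1: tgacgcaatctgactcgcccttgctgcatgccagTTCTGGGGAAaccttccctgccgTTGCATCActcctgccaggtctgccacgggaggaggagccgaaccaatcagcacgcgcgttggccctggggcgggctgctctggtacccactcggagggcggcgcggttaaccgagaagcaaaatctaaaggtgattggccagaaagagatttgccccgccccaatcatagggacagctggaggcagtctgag

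In WT BMDMs at 0 h the 10 genes spanned a wide range of expression. Hspa5, which encodes the ER chaperone BiP, was at 316 ± 22.8 FPKM (SD, n = 4), and 1.35% of tested loci had a higher mean. Xbp1 (69.2 ± 4.21 FPKM) and Atf4 (61.3 ± 3.58 FPKM) came next, with sample ranges that overlapped, and the range of Atf4 in turn overlapped that of Ddit3 (42.6 ± 10.8 FPKM). The remaining order was Herpud1 at 25.2 ± 5.99, Atf5 at 9.30 ± 1.21, Sesn2 at 5.38 ± 0.456, Asns at 3.38 ± 0.451, Trib3 at 1.06 ± 0.433 and Chac1 at 0.0900 ± 0.0501 FPKM, with no overlap between neighbours in the order. Chac1 and Trib3 were thus close to the lower limit of the measurement, and log2(FPKM + 1), the scale of all tests, understates their fold changes.

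**Figure D1:**
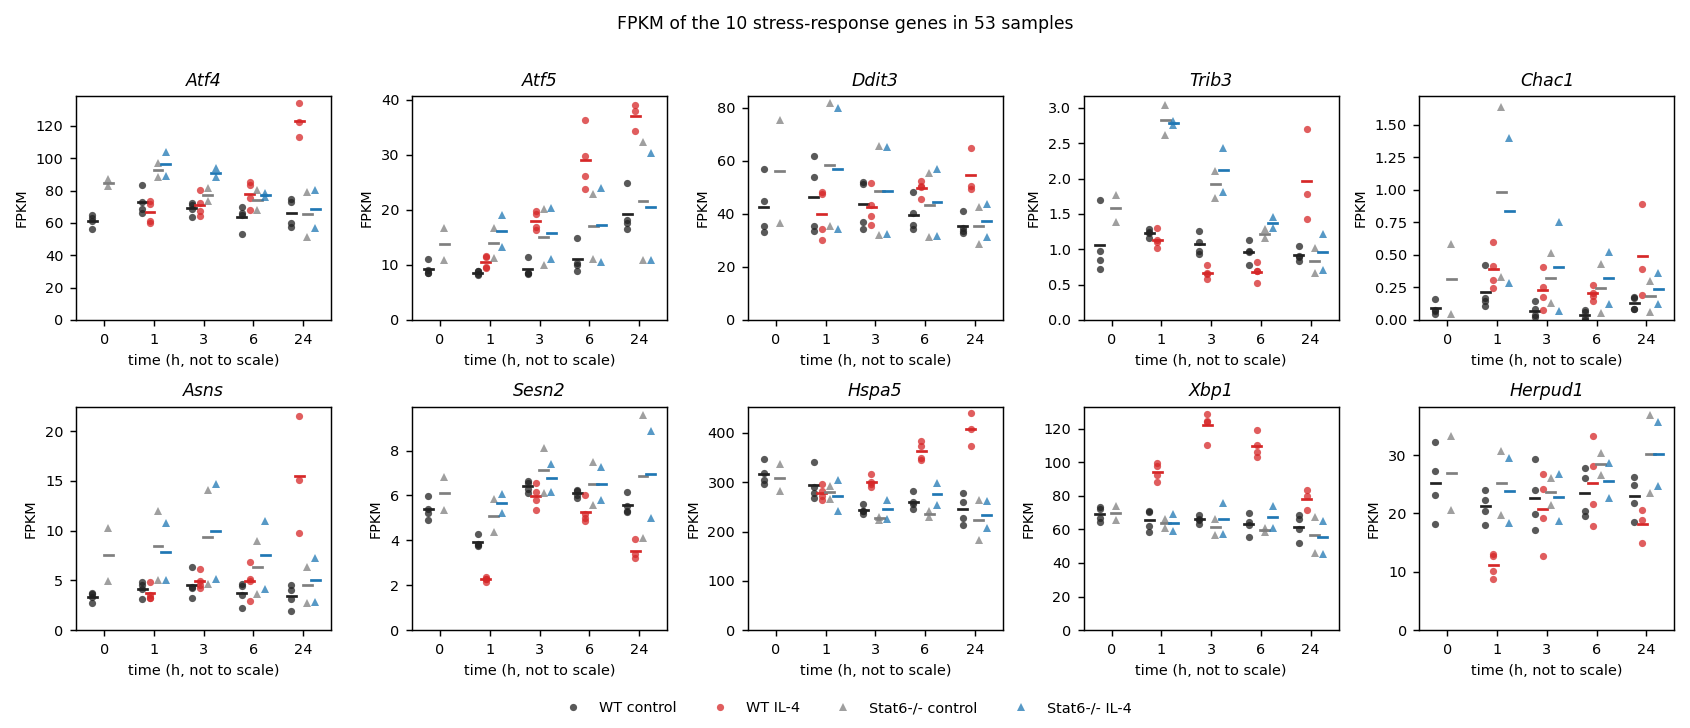
FPKM of the 10 genes in all 53 samples, 1 panel per gene, against time in hours (spaced evenly, not to scale). Circles are WT and triangles Stat6-/- samples, with controls in black and grey and IL-4 samples in red and blue, and bars mark group means. The 3 WT samples with 24 h of IL-4 stand above all WT controls of 24 h for Atf4, Asns and Hspa5, and the Stat6-/- triangles of a group are far apart for Asns and Atf5.

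IL-4 changed genes of the panel at each of the 4 times in WT BMDMs. Differences were tested with limma across all loci, and a gene passed at a Benjamini-Hochberg adjusted p under 0.05. At 1 h Xbp1 was the single gene of the panel that rose, and Herpud1 and Sesn2 fell, where 5.67% of all loci rose and 3.72% fell. At 3 h Xbp1, Atf5 and Hspa5 rose and Trib3 fell, against 16.4% and 12.5% of all loci. At 6 h Xbp1, Atf5, Hspa5 and Atf4 rose and no gene of the panel fell, against 22.0% and 19.2% of all loci. At 24 h Asns, Atf5, Atf4, Hspa5, Trib3 and Xbp1 rose and Sesn2 fell, against 23.4% and 31.6% of all loci. Only Atf5 at 6 h and Asns at 24 h also changed at least 2-fold on the log2(FPKM + 1) scale, which made 0, 0, 1 and 1 of 10 genes at 1, 3, 6 and 24 h beside 1.49%, 3.88%, 5.54% and 8.5% of all loci. The median change of the 10 genes was -0.10, 0.08, 0.31 and 0.60 on the log2 scale at the 4 times, and that of all loci tested was -0.02, 0.01, 0.00 and -0.07.

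**Figure D2:**
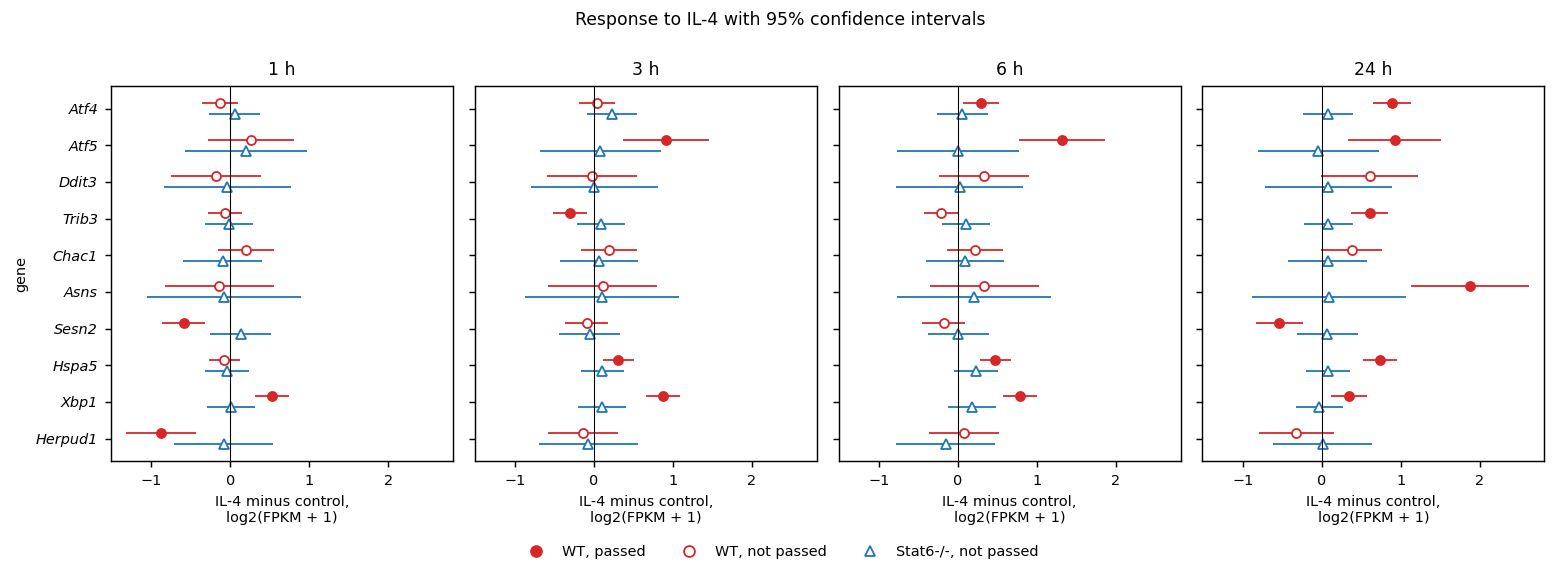
Difference between IL-4 and control samples on the log2(FPKM + 1) scale for each gene at 1, 3, 6 and 24 h, with 95% confidence intervals from limma, in WT (red circles) and Stat6-/- (blue triangles). Filled symbols passed an adjusted p of 0.05. All 40 Stat6-/- values are open and lie between -0.15 and 0.23, and the largest WT value is that of Asns at 24 h, 1.88.

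Atf4, the transcription factor at the centre of the integrated stress response, rose late. At 24 h its WT values with IL-4 were 134, 122 and 113 FPKM, and those of the controls were 57.6, 60.0, 74.5 and 73.1 FPKM. All 3 IL-4 samples lay above all 4 controls, and the means differed 1.86-fold (log2 change 0.89, SE 0.12, adjusted p = 9.06e-08). At 6 h the increase was smaller, from a mean of 63.5 to 78.0 FPKM (log2 change 0.29, adjusted p = 0.0322), and the groups overlapped, with controls up to 69.8 FPKM and IL-4 samples down to 68.2 FPKM. This call at 6 h was lost when control replicate 1 (adjusted p = 0.153), IL-4 replicate 3 (0.0881) or IL-4 replicate 4 (0.0993) was left out. It was also lost without the filter on low values (0.0635), with quantile normalization (0.107) and by an analysis of variance with Tukey's adjustment (0.506). At 1 and 3 h the log2 differences were -0.13 and 0.04.

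Atf5, a bZIP factor related to ATF4 and itself under translational control by eIF2, rose from 3 h on. The WT controls of 6 h held 8.96, 10.3, 10.1 and 14.9 FPKM, and the IL-4 samples 23.7, 26.2, 29.8 and 36.3 FPKM. These groups did not overlap, and the means differed 2.62-fold (log2 change 1.32, SE 0.27, adjusted p = 0.000105). The change was 0.91 on the log2 scale at 3 h (adjusted p = 0.00824), when the means were 18.1 and 9.19 FPKM, and 0.92 at 24 h (adjusted p = 0.00712), when they were 37.1 and 19.3 FPKM. By analysis of variance with Tukey's adjustment neither passed (adjusted p = 0.17 and 0.24). Atf5 lies on chromosome 7 (44812256 to 44816658, minus strand, mm10), and 82 of its 1993 exonic bases (4.1%) are shared with exons of Il4i1 and Nup62. The library kit does not mark strand, so fragments from the shared bases cannot be assigned to 1 gene. In the same samples Nup62 changed by 0.81, 0.95 and 0.68 on the log2 scale at 3, 6 and 24 h, all with an adjusted p under 0.05, and Il4i1, which encodes an amino acid oxidase, by 4.16, 5.89 and 4.75. Their part in the Atf5 values was not tested.

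Ddit3 encodes CHOP, the factor that links prolonged ER stress to cell death. At 24 h its WT values were 64.9, 50.4 and 49.2 FPKM with IL-4 and 41.1, 33.5, 34.9 and 32.8 FPKM in controls. The groups did not overlap, but without a replicate block Ddit3 did not pass the test at any time. At 24 h the adjusted p was 0.0881 for a log2 difference of 0.61 (95% confidence interval -0.01 to 1.22). The WT samples differed before treatment, with the 0 h controls of replicates 1 to 4 at 57.0, 44.8, 35.5 and 33.2 FPKM. With the replicate number as a block in limma, Ddit3 passed at 6 h (log2 change 0.33, adjusted p = 0.0123) and 24 h (0.68, 1.02e-05), but not at 1 or 3 h. As with Atf5, a small part of the Ddit3 exons (81 of 1713 bases, 4.7%) is shared with exons of Mars and Gm4189. Mars changed by -0.094, 0.042, 0.305 and 0.719 on the log2 scale at 1, 3, 6 and 24 h. It passed at 6 h (limma without the block, adjusted p = 0.00707) and 24 h (1.4e-07). Its part in the Ddit3 values was not tested.

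Asns, asparagine synthetase and a classical ATF4 target, had the largest change of the panel on the log2(FPKM + 1) scale. By ratio of means alone that of Chac1 at 6 h was larger, at 5.28, between means of 0.204 and 0.0387 FPKM. With 24 h of IL-4, WT replicates 2, 3 and 4 held 21.5, 15.1 and 9.80 FPKM, while the 4 controls held 1.96, 3.10, 4.49 and 4.07 FPKM. Even the lowest IL-4 sample exceeded the highest control, and the means differed 4.54-fold (log2 change 1.88, SE 0.37, adjusted p = 4.83e-05). The IL-4 samples differed among themselves by more than 2-fold. At 1, 3 and 6 h the log2 differences ranged from -0.14 to 0.33, with adjusted p-values of 0.461 or more.

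The pseudokinase gene Trib3, an ATF4 and CHOP target that feeds back on ATF4, moved in opposite directions at 3 and 24 h. The WT values at 3 h were 0.586, 0.655, 0.661 and 0.782 FPKM with IL-4 and 0.975, 1.26, 1.10 and 0.936 FPKM in controls. All IL-4 samples were the lower ones (log2 change -0.31, SE 0.11, adjusted p = 0.0254), although at these low values the call was lost on leaving out control replicate 2 (adjusted p = 0.0921), control replicate 3 (0.0544), IL-4 replicate 1 (0.0684) or IL-4 replicate 2 (0.0505), and by analysis of variance with Tukey's adjustment (0.126). By 24 h the IL-4 samples were at 2.70, 1.78 and 1.42 FPKM and the controls at 0.893, 0.834, 0.909 and 1.05 FPKM, 2.13-fold apart in the means (log2 change 0.60, SE 0.12, adjusted p = 3.09e-05).

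Chac1, a glutathione-degrading enzyme induced through ATF4 and CHOP, remained below 1 FPKM in every WT sample. At 24 h the IL-4 samples were at 0.888, 0.388 and 0.194 FPKM and the controls at 0.0808, 0.0851, 0.177 and 0.168 FPKM, which did not overlap. None of its 4 WT comparisons passed without a replicate block (log2 differences 0.19 to 0.38, smallest adjusted p = 0.0868), and 1 WT control of 6 h was listed at 0. With the replicate number as a block in limma, Chac1 passed at 24 h (log2 change 0.35, adjusted p = 0.00611) and at no other time.

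Sesn2, a leucine sensor that restrains mTORC1, went down rather than up. At 1 h its WT values were 2.27, 2.27, 2.39 and 2.17 FPKM with IL-4 and 3.84, 3.76, 4.30 and 3.79 FPKM in controls. The groups were well separated, and the mean with IL-4 was 0.58 of the control mean (log2 change -0.59, SE 0.14, adjusted p = 0.00196). At 24 h Sesn2 was again lower with IL-4, at 4.04, 3.20 and 3.37 FPKM against 6.16, 5.26, 5.51 and 5.33 FPKM (log2 change -0.54, SE 0.15, adjusted p = 0.00219), a call lost by analysis of variance with Tukey's adjustment (0.0847). At 3 and 6 h the log2 differences were -0.09 and -0.18 and did not pass.

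Xbp1, whose spliced mRNA encodes the main factor of the IRE1 branch, was the only gene of the panel that passed at all 4 times in WT. The 1 h values with IL-4 were 92.3, 88.0, 99.4 and 97.6 FPKM and those of the controls 70.5, 70.7, 62.1 and 58.2 FPKM. The increase was already beyond the spread of the samples (log2 change 0.53, SE 0.11, adjusted p = 0.000361). At 3 h the IL-4 samples reached 129, 110.1, 125 and 124 FPKM against 65.6, 66.3, 68.5 and 63.3 FPKM, a ratio of means of 1.85 (log2 change 0.87, SE 0.11, adjusted p = 1.31e-08). The log2 change was 0.79 at 6 h (adjusted p = 8.55e-08) and 0.34 at 24 h (adjusted p = 0.011), when the means were 78.2 and 61.6 FPKM. The 24 h call was lost without control replicate 2 (adjusted p = 0.0606) or IL-4 replicate 4 (0.0591), and by analysis of variance with Tukey's adjustment (0.287). FPKM of the gene does not separate spliced from unspliced Xbp1.

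Hspa5, the chaperone gene with ERSE in its promoter window, rose from 3 h on. At 24 h the WT samples with IL-4 were at 373, 409 and 440.5 FPKM and the controls at 228, 213, 261 and 279 FPKM. No sample overlapped, and the means differed 1.66-fold (log2 change 0.74, SE 0.11, adjusted p = 2.28e-07). The log2 change was 0.30 at 3 h (adjusted p = 0.0142) and 0.48 at 6 h (adjusted p = 0.000107), again with every IL-4 sample above every control, and -0.08 at 1 h, which did not pass. The 3 h call was lost by analysis of variance with Tukey's adjustment (adjusted p = 0.164). Whether the change differed between times was not tested.

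Herpud1, an ER membrane protein of the degradation machinery with ERSE-II and a CARE core in its promoter window, fell early. At 1 h it was at 10.2, 8.81, 12.8 and 13.1 FPKM with IL-4 and at 20.5, 18.1, 22.2 and 24.1 FPKM in controls. All IL-4 samples were below all controls, and the mean with IL-4 was 0.529 of the control mean (log2 change -0.87, SE 0.22, adjusted p = 0.00516). At 3, 6 and 24 h the groups overlapped, with log2 differences between -0.32 and 0.08 and adjusted p-values of 0.252 or more. With the replicate number as a block in limma, Herpud1 also passed at 24 h (-0.36, adjusted p = 0.0318). Hspa5 and Herpud1, the genes with ER stress elements in their windows, thus passed in opposite directions, and without the block at different times.

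Without STAT6, IL-4 was not seen to change any of the 10 genes. Of the 40 comparisons in Stat6-/- BMDMs none passed, with log2 differences from -0.15 to 0.23, and none had an unadjusted p under 0.05 in limma. The smallest unadjusted p in limma, that of Hspa5 at 6 h, was 0.102. An analysis of variance with Tukey's adjustment passed 0 of them too. The share of all loci that passed in limma was 0.0% at each of the 4 times, while 51, 131, 88 and 37 loci had an unadjusted p under 0.05. With 2 samples per group and no replicate block, the intervals were wide for some genes. For Asns at 24 h the Stat6-/- difference was 0.09 with a 95% confidence interval from -0.88 to 1.07, for Atf5 at 6 h it was 0.00 (-0.77 to 0.77), and for Xbp1 at 3 h it was 0.10 (-0.20 to 0.40). With the replicate number as a block in limma, the SE for Asns at 24 h was 0.21 instead of 0.48. For Atf5 at 6 h it was 0.17 instead of 0.38, and for Xbp1 at 3 h it stayed at 0.15. The absence of a call in Stat6-/- alone does not show a difference from WT, and the difference of the responses was tested directly.

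The response to IL-4 differed between WT and Stat6-/- for genes of the panel at 3, 6 and 24 h. At 1 h none of the 10 passed this test in limma without a replicate block (3 had an unadjusted p under 0.05, as did 10.2% of all loci). Beside them, 3.36% of all loci passed in either direction. At 3 h Xbp1 passed (difference of log2 changes 0.78, SE 0.18, adjusted p = 0.00255), beside 11.2% of all loci. At 6 h Xbp1 (0.61, adjusted p = 0.0155) and Atf5 (1.32, adjusted p = 0.0458) passed, beside 16.5% of all loci. At 24 h Asns (1.78, adjusted p = 0.0251), Atf4 (0.81, adjusted p = 0.00207), Hspa5 (0.66, adjusted p = 0.00393) and Trib3 (0.52, adjusted p = 0.0372) passed, beside 27.0% of all loci. In each of these the WT response was the more positive one. The decreases did not pass this test in the fit without a replicate block. For Herpud1 at 1 h the difference was -0.79 (adjusted p = 0.457), and for Sesn2 it was -0.72 at 1 h (adjusted p = 0.0943) and -0.60 at 24 h (adjusted p = 0.0576). With the replicate number as a block in limma, Herpud1 at 1 h (-0.79, adjusted p = 0.0276) and Sesn2 at 1 h (-0.72, 0.00104) and 24 h (-0.59, 0.00219) passed. Trib3 at 3 h passed in neither fit (-0.40, adjusted p = 0.197 without and 0.114 with the block).

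**Figure D3:**
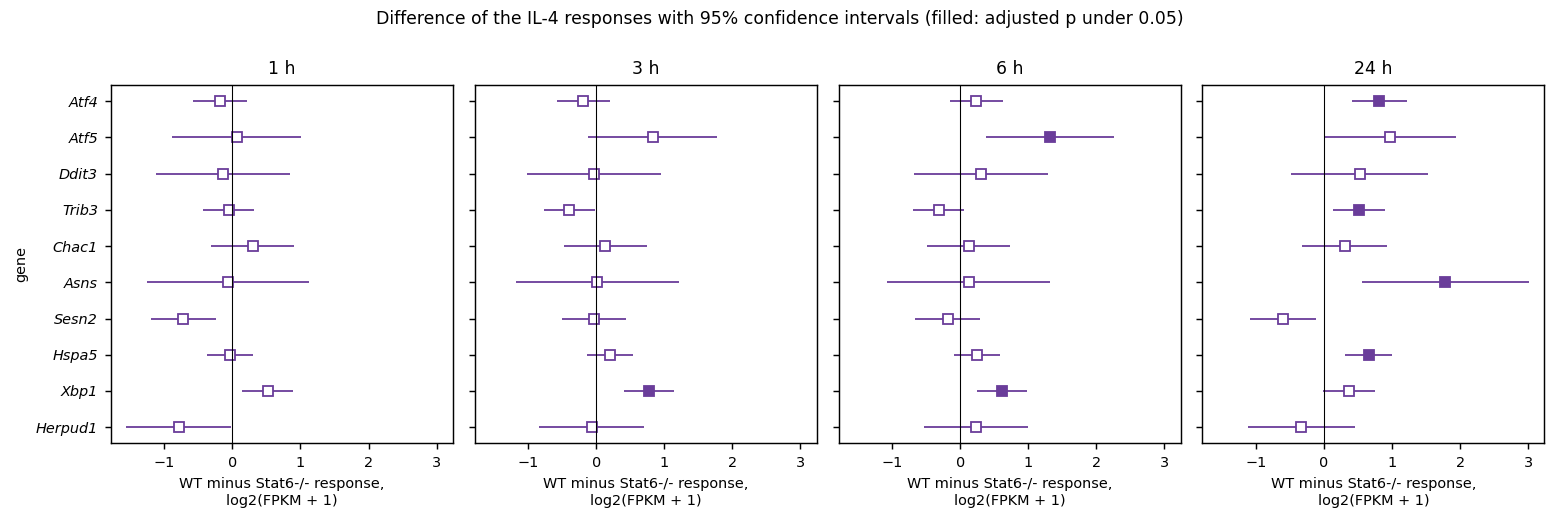
WT response minus Stat6-/- response to IL-4 on the log2(FPKM + 1) scale for each gene at 1, 3, 6 and 24 h, with 95% confidence intervals from limma. Filled squares passed an adjusted p of 0.05: Xbp1 at 3 h, Xbp1 and Atf5 at 6 h, and Atf4, Trib3, Asns and Hspa5 at 24 h, all above 0.

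In the fit without a replicate block, these calls depended on single samples and on the settings. With the replicate number as a block in limma, all of them passed. The adjusted p-values at 24 h were then 3.7e-06 for Asns, 4.76e-05 for Atf4, 0.00263 for Hspa5 and 0.0211 for Trib3. They were 0.00117 and 0.0078 for Xbp1 at 3 and 6 h, and 6.17e-06 for Atf5 at 6 h. The omissions that follow were run without the block. Leaving out a Stat6-/- sample unmatched the replicate numbers of IL-4 and control. At 24 h all 4 calls were lost when Stat6-/- control replicate 1 or Stat6-/- IL-4 replicate 2 was left out, with adjusted p-values of 0.103 and 0.0703 for Atf4, 0.147 and 0.0815 for Hspa5, 0.229 and 0.245 for Asns, and 0.268 and 0.325 for Trib3. Leaving out WT control replicate 1 or WT IL-4 replicate 2 also lost Asns (0.0526 and 0.0726) and Trib3 (0.0527 and 0.155), and WT control replicate 2 lost Trib3 (0.059). The Atf5 call at 6 h was lost on leaving out any 1 of 8 samples (adjusted p up to 0.361), and the difference ranged from 0.77 to 1.87 over the 12 omissions. For Xbp1 the call was lost without Stat6-/- IL-4 replicate 1, at 3 h (adjusted p = 0.0655) and at 6 h (0.136), and at 6 h also without Stat6-/- control replicate 1 (0.0643). The sign held under every omission. Without the other groups in the fit, all 4 calls at 24 h (Atf4 0.0803, Asns 0.0741, Hspa5 0.103 and Trib3 0.169) and that of Atf5 at 6 h (0.0992) were lost. Without the filter on low values Asns (0.0534), Trib3 (0.0684) and Atf5 at 6 h (0.0942) were lost, as were Trib3 with a pseudocount of 0.1 (0.0522) and Atf5 at 6 h with quantile normalization (0.0505).

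For Asns, Atf5, Chac1, Ddit3 and Sesn2 the 2 Stat6-/- replicate numbers differed in the same direction across time and treatment. Asns in replicate 1 was 2.10 to 3.07 times its level in replicate 2 in all 9 groups, for instance 14.1 against 4.60 FPKM in the 3 h control. Atf5 was also higher in replicate 1 in all 9 groups, by 1.43 to 2.98 times, and so was Chac1, at low levels, by 3.03 to 11.8 times. Ddit3 and Sesn2 went the other way, with replicate 1 at 0.427 to 0.718 and 0.428 to 0.859 of replicate 2 in all 9 groups. Asns and Ddit3 were therefore high in different samples. Hspa5 and Xbp1 were closer, with ratios of 0.794 to 1.43 and 0.755 to 1.47, but their direction changed between groups. So did that of Herpud1 (0.638 to 1.61), Atf4 (0.939 to 1.54) and Trib3 (0.786 to 1.72). Hspa5 in replicates 1 and 2 was at 282 and 337 FPKM in the 0 h controls and at 263 and 184 FPKM in the 24 h controls. With 1 FPKM added to each mean over the 9 groups, 4.24% of all loci tested differed at least 2-fold between the replicate numbers. On this scale Asns was the 1 gene of the panel that did. The log2 differences were 1.15 for Asns, 0.96 for Atf5 and 0.60 for Chac1, whose plain FPKM ratios, given above, were larger. The summed neutrophil markers ranged from 545 to 934 FPKM in replicate 1 and from 496 to 647 FPKM in replicate 2, and their part in these differences was not tested.

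**Figure D4:**
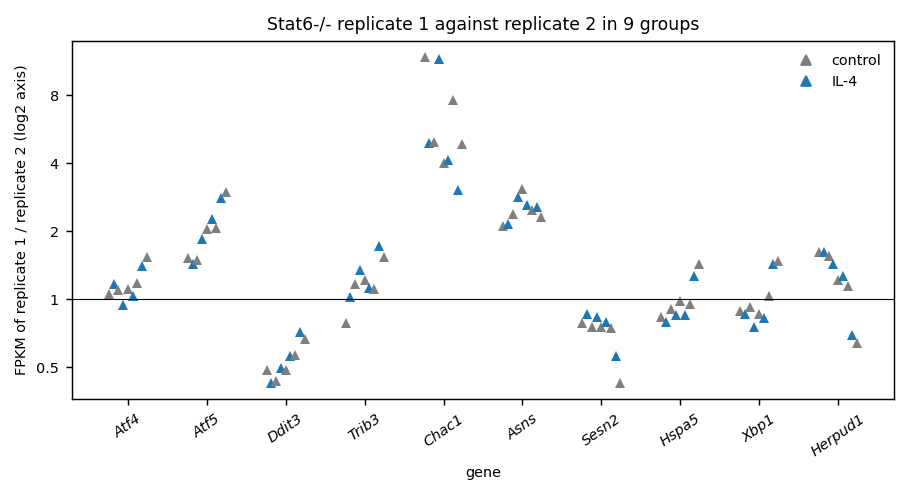
FPKM of Stat6-/- replicate 1 divided by that of replicate 2 for each gene on a log2 axis, 1 triangle per group (grey for the 5 control times, blue for the 4 IL-4 times, ordered by time from left to right). Asns, Atf5 and Chac1 lie above 1 and Ddit3 and Sesn2 below 1 in all 9 groups.

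In the fit without a replicate block, time in culture without IL-4 moved few of these genes. In WT, no gene of the panel passed in limma at 1, 3 or 6 h against 0 h, beside 2.0%, 0.144% and 0.135% of all loci. At an unadjusted p under 0.05 there were 2, 1 and 1 of the 10 genes, beside 11.7%, 6.48% and 8.1% of all loci. At 24 h, beside 17.2% of all loci, Atf5 rose and Hspa5 fell. Atf5 went from 11.1, 8.59, 8.53 and 9.01 FPKM at 0 h to 18.1, 16.6, 17.6 and 24.9 FPKM at 24 h, without overlap (log2 change 0.97, SE 0.27, adjusted p = 0.0108). Hspa5 went from 348, 318, 304 and 296 FPKM to 228, 213, 261 and 279 FPKM (log2 change -0.37, SE 0.10, adjusted p = 0.00648). The controls of 24 h serve as the reference of IL-4 at 24 h too, so the increase of Hspa5 with IL-4 was measured against a lowered control, and the mean of 407 FPKM with IL-4 also lay above the 0 h mean of 316 FPKM. In Stat6-/- no gene passed, beside 0.0807%, 0.0%, 0.0% and 0.718% of all loci at the 4 times. At an unadjusted p under 0.05 there were 2, 1, 1 and 4 of the 10 genes at the 4 times, beside 4.43%, 3.89%, 2.4% and 14.7% of all loci. With the replicate number as a block in limma, genes of the panel were lower in Stat6-/- controls at 24 h than at 0 h. These were Asns (-0.64, adjusted p = 0.0324), Ddit3 (-0.58, 0.0101), Trib3 (-0.49, 0.0172), Hspa5 (-0.48, 0.0136) and Atf4 (-0.40, 0.0136). Over all loci 671 were higher and 1202 lower. Trib3 was higher at 1 h (0.57, 0.0398).

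Controls of the genotypes were compared as well. At 0 h none of the 10 genes passed, beside 2.18% of all loci, and 3 had an unadjusted p under 0.05 in limma, beside 14.0% of all loci. The largest difference was that of Asns, at 10.3 and 4.89 FPKM in Stat6-/- and 2.75 to 3.78 FPKM in WT (log2 difference 0.90, adjusted p = 0.308), and the smallest adjusted p that of Atf4 (0.0598), at 86.9 and 82.7 FPKM against 56.5 to 64.6 FPKM. Averaged over the 5 control times, 4 of the 9 genes other than Chac1 were higher in Stat6-/- and passed, beside 21.4% of all loci in either direction. Chac1 is not counted, because it reached 1 FPKM only in Stat6-/- samples, and its means over the control times were 0.409 FPKM in Stat6-/- and 0.108 FPKM in WT. The 4 genes were Trib3 (log2 difference 0.35, adjusted p = 2.75e-05), Atf4 (0.23, adjusted p = 0.00503), Asns (0.66, adjusted p = 0.00901) and Atf5 (0.44, adjusted p = 0.0271). The average takes the samples of different times as separate, although Asns and Atf5 were set apart by replicate number. With the replicate number as a random term Trib3 (adjusted p = 0.046) and Asns (0.0459) passed, and Atf4 and Atf5 did not (0.135 and 0.11). The call of Atf5 was also lost without the filter on low values (0.0532) and on leaving out any 1 of the 5 Stat6-/- control samples of replicate 1 (adjusted p up to 0.134). The higher neutrophil marker sum of Stat6-/- controls given above moved with this comparison, and its part was not tested. For Trib3 the genotypes were furthest apart at 1 h, when the Stat6-/- controls were at 3.04 and 2.61 FPKM and the WT controls at 1.23, 1.24, 1.16 and 1.29 FPKM.

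The other genes of these pathways were followed in 4 lists, by role, to be read beside all loci, of which 5.67%, 16.4%, 22.0% and 23.4% rose and 3.72%, 12.5%, 19.2% and 31.6% fell in WT with IL-4 at 1, 3, 6 and 24 h. Of 18 stress sensors and eIF2 control genes, all tested, 1, 7, 6 and 8 rose in WT at 1, 3, 6 and 24 h with IL-4, and 0, 0, 0 and 1 fell. Eif2b2, a subunit of the exchange factor of eIF2, was the only one of them with a 2-fold change and separated groups, from 22.5 ± 1.67 to 46.5 ± 1.82 FPKM (SD, n = 4 and 4) at 6 h (log2 change 1.01, adjusted p = 7.62e-12). The median log2 change of this list at 24 h was 0.02, beside -0.07 for all loci.

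Among 41 other genes linked to ATF4, of which 34 were tested, none rose at 1 h and 3 fell, while 8, 15 and 21 rose and 4, 3 and 3 fell at 3, 6 and 24 h. The list's median log2 change was 0.55 at 24 h, beside -0.07 for all loci. Psat1, an enzyme of serine synthesis, went from 4.66 ± 0.544 (SD, n = 4) to 35.8 ± 10.3 FPKM (SD, n = 3) at 24 h (log2 change 2.67, adjusted p = 1.96e-09), and Slc7a1, a transporter of arginine and lysine, from 1.35 ± 0.235 to 5.05 ± 2.20 FPKM (log2 change 1.31, adjusted p = 2.69e-09). Atf3, a stress-induced bZIP repressor, rose at 24 h from 245 ± 18.2 to 572 ± 29.6 FPKM (log2 change 1.22, adjusted p = 1.55e-06). The cytokine gene Gdf15 fell at 1 h from 8.30 ± 1.95 to 0.773 ± 0.279 FPKM (log2 change -2.38, SE 0.33, adjusted p = 6.28e-07), the same time at which Herpud1 and Sesn2 fell.

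The ER list held 38 chaperone, folding and degradation genes, 37 of them tested, and 3, 10, 21 and 23 rose at 1, 3, 6 and 24 h, while 0, 1, 0 and 5 fell. Pdia4, a protein disulfide isomerase, rose from 34.5 ± 4.50 to 153 ± 6.40 FPKM at 6 h (SD, n = 4 and 4, log2 change 2.12, adjusted p = 3.08e-23), when Hspa5 changed by 0.48. At 24 h Wfs1, an ER membrane protein, rose by 1.81 on the log2 scale, Creld2 by 1.24 and Sdf2l1, a partner of BiP, by 1.09, with adjusted p-values of 1.39e-09, 8.61e-07 and 9.63e-07. The median change of this list was 0.30 at 6 h and 0.35 at 24 h, beside 0.00 and -0.07 for all loci.

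For comparison, of 15 heat shock genes of the cytosol and mitochondria, 14 of them tested, 2, 4, 5 and 10 rose and 0, 0, 1 and 0 fell. Hsph1 rose from 10.2 ± 1.23 to 42.7 ± 7.12 FPKM at 24 h (log2 change 1.96, adjusted p = 3.05e-12), and the cochaperone Bag3 and the mitochondrial chaperonin Hspd1 by 1.36 and 1.22. The median change of this list at 24 h was 0.56, beside -0.07 for all loci. The response at 24 h differed between WT and Stat6-/- for 6 of the 18 sensor and control genes, 15 of the 34 ATF4-linked genes, 15 of the 37 ER genes and 7 of the 14 heat shock genes, beside 27.0% of all loci. No gene of the 4 lists passed in Stat6-/- BMDMs with IL-4.

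**Figure D5:**
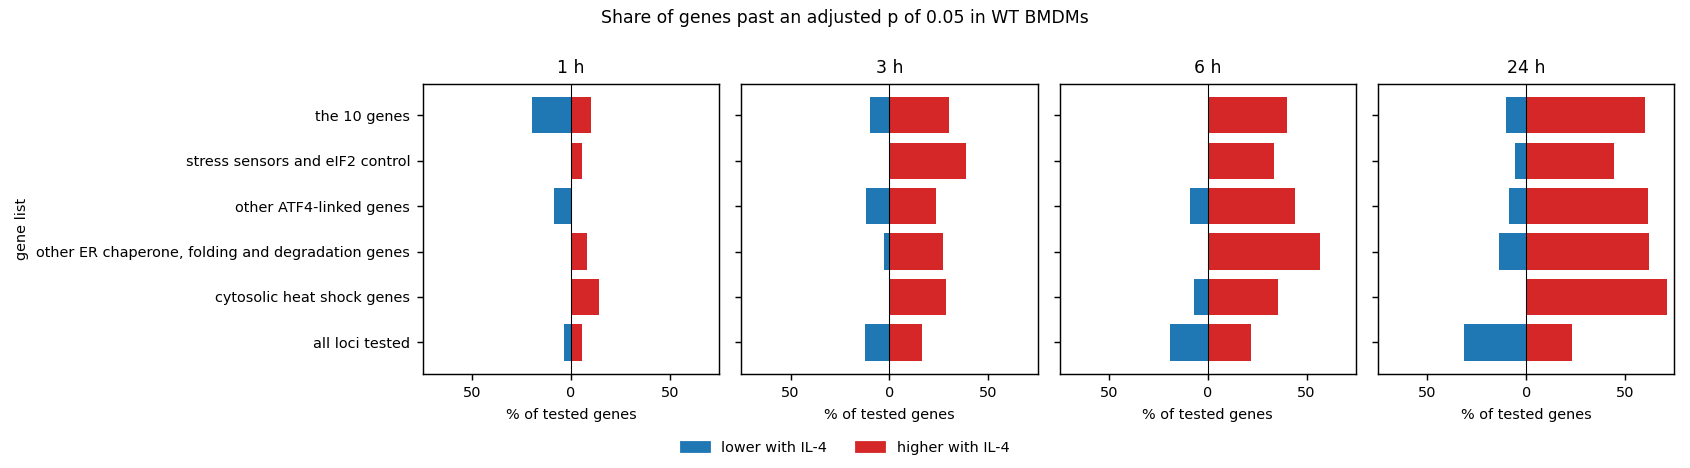
Share of tested genes past an adjusted p of 0.05 in WT with IL-4, in percent, for the 10 genes, the 4 lists and all loci tested, at 1, 3, 6 and 24 h. Red bars to the right are genes higher and blue bars to the left genes lower with IL-4. At 24 h 6 of the 10 genes rose and 1 fell, while of all loci 23.4% rose and 31.6% fell.

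The loci whose means over the 18 groups were most alike those of the 2 genes with a 2-fold IL-4 change were also noted. For Atf5 they were Tfrc, the transferrin receptor (Pearson r = 0.96), Tbxas1, thromboxane synthase (0.96), and Slc6a9, a glycine transporter (0.94). For Asns they were Cars, a cysteinyl-tRNA synthetase (0.95), Mthfd2, a mitochondrial folate enzyme (0.94), and Igf2bp2, an RNA-binding protein (0.92). The 18 group means come from the same libraries, so these values only describe likeness.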

How the data were processed

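RNA was selected by poly(A), made into libraries with a kit that does not mark strand, and sequenced by the authors in 100-base paired reads. The submitters' processing notes name TopHat2 2.0.7 and Cufflinks 2.0.2 with mm10, and the gene annotation is not given in the sources used here. The authors deposited 1 table of gene-level FPKM per sample. FPKM is scaled within a sample, so abundant genes can shift all others, and no counting interval can be given.

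The tables were joined on locus and symbol. Loci that reached 1 FPKM in 1 sample or more were kept and tested as log2(FPKM + 1) in limma 3.58.1 (R 4.3.3, group means, intensity trend, 35 residual degrees of freedom), two-sided, with Benjamini-Hochberg adjustment over 11146 loci in each contrast. Confidence intervals are at 95%. The fit was tested on simulated data in which samples varied independently. That test does not show how the fit handles same-numbered samples that deviate together. Contrasts were IL-4 against control in each genotype, the difference of these responses, later controls against 0 h, and Stat6-/- against WT controls. The gene panel and the lists were chosen with earlier results of these data known, and no set test was run. From a list, up to 4 genes are named that changed at least 2-fold in WT with separated groups, by size. Likeness is Pearson's r over group means, 3 loci for each gene of the panel with a 2-fold change. Promoter windows are from RefSeq, and exon overlaps from GENCODE on the same build. Relative depth was taken from the commonest FPKM ratio between 2 samples at 6633 low loci, and 1 depth per sample gave the ratio of 100.0% of the 1378 pairs within 2%. No 2 samples were identical. Alternatives were another pseudocount (0.1), filters, quantile normalization, a fit of the compared groups only, omission of each sample, the replicate number as a block, and analysis of variance with Tukey's adjustment.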

Additional observations from a re-analysis of the deposited data

Results flagged for a closer look

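In groups of 4 samples, a sample is named here when its distance to the nearest other sample takes up most of the range of the group (Dixon's criterion). Of 80 sets of 4 values, 2 met it, and chance alone gives about 1 in 20. Atf5 in WT 3 h control replicate 4 was at 11.4 FPKM, with the others between 8.34 and 8.60 FPKM. Sesn2 in WT 1 h control replicate 3 was at 4.30 FPKM, with the others between 3.76 and 3.84 FPKM, and the 4 IL-4 samples were lower still.

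The response to IL-4 differed between WT and Stat6-/- BMDMs in 7 tests (limma, adjusted p under 0.05). These were 0, 1, 2 and 4 of the 10 genes at 1, 3, 6 and 24 h, beside 3.36%, 11.2%, 16.5% and 27.0% of all loci. Without a replicate block the calls depended on single samples, as given above, and all 4 at 24 h were lost with only the compared groups fitted. With the replicate number as a block in limma all 7 passed. The WT response exceeded that of Stat6-/- by 0.78 on the log2 scale for Xbp1 at 3 h and 0.61 at 6 h, by 1.32 for Atf5 at 6 h, and at 24 h by 1.78 for Asns, 0.81 for Atf4, 0.66 for Hspa5 and 0.52 for Trib3.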

How the results depend on the processing

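No change named in the report turned direction under any alternative run. Of the 10 genes, fitting only the compared groups passed 8 in WT at 6 h (4 in the report) and 1, 1 and 0 in the difference of responses at 1, 6 and 24 h (0, 2 and 4), and analysis of variance passed 1 at 3 h and 4 at 24 h in WT (4 and 7). Without the filter on low values the difference passed 1 at 6 h and 2 at 24 h. Quantile normalization passed 1 in the difference at 1 h, 1 at 6 h and 1 in WT controls at 3 h, and a pseudocount of 0.1 passed 1 in the difference at 1 h (Sesn2, adjusted p = 0.048, which also passed at 24 h, 0.0442). The count past 2-fold in the difference became 0 at 6 h without the filter, with quantile normalization and with the compared groups only, and 0 at 24 h without the filter and with the compared groups only (1 at each time in the report). With 1 sample left out, the difference passed 0 to 1 genes at 3 h, 0 to 2 at 6 h and 0 to 7 at 24 h, and past 2-fold 0 to 1 at 6 h and 0 to 4 at 24 h. The 2-fold count in WT ranged from 0 to 1 at 3 h and from 1 to 2 at 24 h, the higher value each time without control replicate 4. Without WT 0 h control replicate 1, the genotypes differed in 1 gene at 0 h. Averaged over the control times, the log2 difference of the genotypes ranged from 0.52 to 0.80 for Asns and from 0.32 to 0.37 for Trib3. It ranged from 0.17 to 0.29 for Atf4 and from 0.29 to 0.59 for Atf5. With a Stat6-/- sample left out, its group holds 1 sample, assumed to vary like the rest. Over all loci, quantile normalization passed 247 higher and 143 lower in the difference at 1 h and 991 and 861 at 6 h. In WT controls at 3 h it passed 10 and 5. A pseudocount of 0.1 passed 239 and 135 in the difference at 1 h and 1329 and 1833 at 24 h. Shares of all loci are not given here for the other settings, so those counts describe the panel only. The causes were not tested.

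Same-numbered samples are not stated to share an animal. Their deviations correlated over 0.1 in 13 of 15 WT pairs of IL-4 and control (0.03 to 0.56) and in 8 of 8 Stat6-/- pairs (0.79 to 0.90). With 2 samples per Stat6-/- group, the 2 pairs of a time give the same value by construction, so these 8 are not separate. Of 35 WT samples, 29 correlated best with their own number, a hint from the data and not the design. With the replicate block, the difference of responses passed 2 genes at 1 h (Sesn2, -0.72, adjusted p = 0.00104, and Herpud1, -0.79, 0.0276), 2 at 3 h (Atf5, 0.83, 0.0035, added) and 7 at 24 h, where Atf5 (0.94, 0.000698), Sesn2 (-0.59, 0.00219) and Ddit3 (0.60, 0.0149) were added and Asns (3.7e-06) and Atf4 (4.76e-05) had smaller adjusted p-values, WT controls 1 at 1 h and 1 at 3 h, and Stat6-/- controls 1 at 1 h and 5 at 24 h. WT with IL-4 at 24 h added Ddit3 (log2 change 0.68, adjusted p = 1.02e-05), Chac1 (0.35, 0.00611) and Herpud1 (-0.36, 0.0318), and at 6 h Ddit3 (0.33, 0.0123). Over all loci it moved the difference of responses from 246 higher and 128 lower to 484 and 357 at 1 h, 778 and 470 to 1289 and 1092 at 3 h, 1036 and 801 to 1708 and 1654 at 6 h, and 1355 and 1653 to 2029 and 2990 at 24 h. WT with IL-4 went from 632 and 415 to 1023 and 885 at 1 h and from 1825 and 1395 to 2408 and 2172 at 3 h. At 6 h it went from 2455 and 2135 to 3109 and 3045. At 24 h it went from 2613 and 3518 to 3046 and 4333, and all 10 genes passed. In Stat6-/- with IL-4 the block passed 2, 4, 4 and 1 loci, none of the 10 genes, where the fit without it passed 0. Against 0 h, WT controls went from 28 higher and 195 lower to 146 and 576 at 1 h, 9 and 7 to 88 and 56 at 3 h, 13 and 2 to 263 and 318 at 6 h, and 632 and 1290 to 1537 and 2597 at 24 h, and Stat6-/- controls of 24 h from 17 and 63 to 671 and 1202. As a random effect the replicate block gave 1 gene at 0 h and 2 over all times between genotypes.

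Absolute depth is unknown, which limits Chac1 and Trib3 most, and 2 samples per Stat6-/- group leave wide intervals in the fit without a replicate block.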

Other observations

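The loci within 50 kb of the 10 genes were read as well, a window chosen after the values were seen. Of 25 tested neighbours, Il4i1 was the only one with a 2-fold change in WT with IL-4. Its locus in the deposited tables lies 19630 bases from Atf5, while longer Il4i1 transcripts in GENCODE start upstream and share exonic bases with Atf5. Its means were 1.22 FPKM in controls and 130 FPKM with IL-4 at 6 h (log2 change 5.89, SE 0.22, adjusted p = 3.43e-23). Nup62, a nuclear pore gene that overlaps Atf5, went from 29.7 to 58.0 FPKM at the same time (log2 change 0.95, SE 0.21, adjusted p = 0.000301).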
